A study of Mus musculus with 8 samples.

Results

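The miR-297, miR-466, miR-467 and miR-669 families are the rodent miRNAs of a large repeat cluster in an intron of Sfmbt2, a Polycomb group gene that is imprinted and expressed from the paternal copy in early embryo and placenta. Members were all miRNAs of the array named for one of these families, with any letter and arm, and 61 of the 1881 miRNAs met this rule. They comprised 3 names of the miR-297 family, 23 of miR-466, 12 of miR-467 and 23 of miR-669. Their levels were read in whole kidneys of male Akita mice (C57BL/6-Ins2Akita/J) and of male C57BL/6J control mice, with 4 samples per group, 1 array per sample and 100 ng of total RNA per labelling. The Akita allele of Ins2, an insulin gene, acts dominantly: its proinsulin misfolds and injures the pancreatic beta cells, which leaves the animals diabetic. The sample titles call the controls Mock, the age label reads 36 for all 8 samples and names no unit, and the labels do not say whether the samples are from separate mice. P-values therefore measure the spread between these samples only.

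The hairpins of these families are built largely from alternating U and G on the 5′ arm and alternating C and A on the 3′ arm, so that many members resemble each other and other simple repeats in the transcriptome. The cluster is known for high expression in placenta and embryonic stem cells, and its loss in mice impairs placental growth. MiR-467 has also been described as a regulator of thrombospondin-1 in cells exposed to high glucose. An Agilent miRNA probe pairs with the 3′ part of a mature miRNA, and 162 of the 4415 probes on the array belonged to the members, 1 to 4 per name. The shorter probes of a name are truncated forms of its longest one. The scanner software calls a miRNA detected on an array when its summed signal stands above its error, and this deposited call was used to say which members were present.

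Kidney RNA gave a detection call for 12 of the 61 members on at least 1 of the 8 arrays, or 19.7%, against 432 of the 1820 other miRNAs (23.7%). The longest probes of the 12 are printed here because of the uninterrupted alternating run that each holds, whose letters are in capitals. The run is no longer than the rest of the probe in miR-669n (8 of 18 bases), miR-466g (8 of 16) and miR-466h-5p (7 of 19), and longer than the rest in the other 9. They are written 5′ to 3′ as the array holds them, as the complement of the RNA they read.
miR-466i-5p: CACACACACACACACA
miR-466q: acgtaTGTGTGTGTGTG
miR-467f: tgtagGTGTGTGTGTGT
miR-669c-3p: tttactTGTGTGTGTGTG
miR-669p-3p: atacGTGTGTGTGTGTatg
miR-466h-3p: GTGTGTGTGTGcgt
miR-466f-3p: gtgtgtaTGTGTGTGTG
miR-466i-3p: tagtgtgtaTGTGTGTGTG
miR-669f-3p: atacGTGTGTGTGTatgt
miR-669n: acacacatcCACACACAa
miR-466g: TGTGTGTGcatgtgtc
miR-466h-5p: tACACACAagcacatgcac

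Long runs were detected more often than short ones. The run is the longest stretch in which T and G, or C and A, strictly alternate in the longest probe of a name. All 9 members with a run of at least 10 bases were detected, and 7 of them on all 8 arrays. Of the 14 members with a run of 8 or 9 bases, 2 were detected (miR-669n and miR-466g), and of the 23 with a run of 6 or 7 bases, 1 was (miR-466h-5p). None of the 15 members with a run of at most 5 bases was detected on any array. With a limit of 8 bases, 11 of 23 members above and 1 of 38 below were detected. Among the other miRNAs, the share detected was 419 of 1781 at runs of at most 5 bases, 7 of 32 at 6 or 7, 4 of 5 at 8 or 9 and 2 of 2 at 10 or more. The members just inside and just outside the limit of 10 were miR-466f-3p, miR-466i-3p and miR-669f-3p, detected on 8, 8 and 5 arrays, and the 4 undetected names with a run of 9, miR-466a-5p, miR-466p-5p, miR-467g and miR-669a-3-3p. The limit of 10 was chosen after these values were seen, and members that share repeats are not independent of each other, so these counts are a description.

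**Figure D1:**
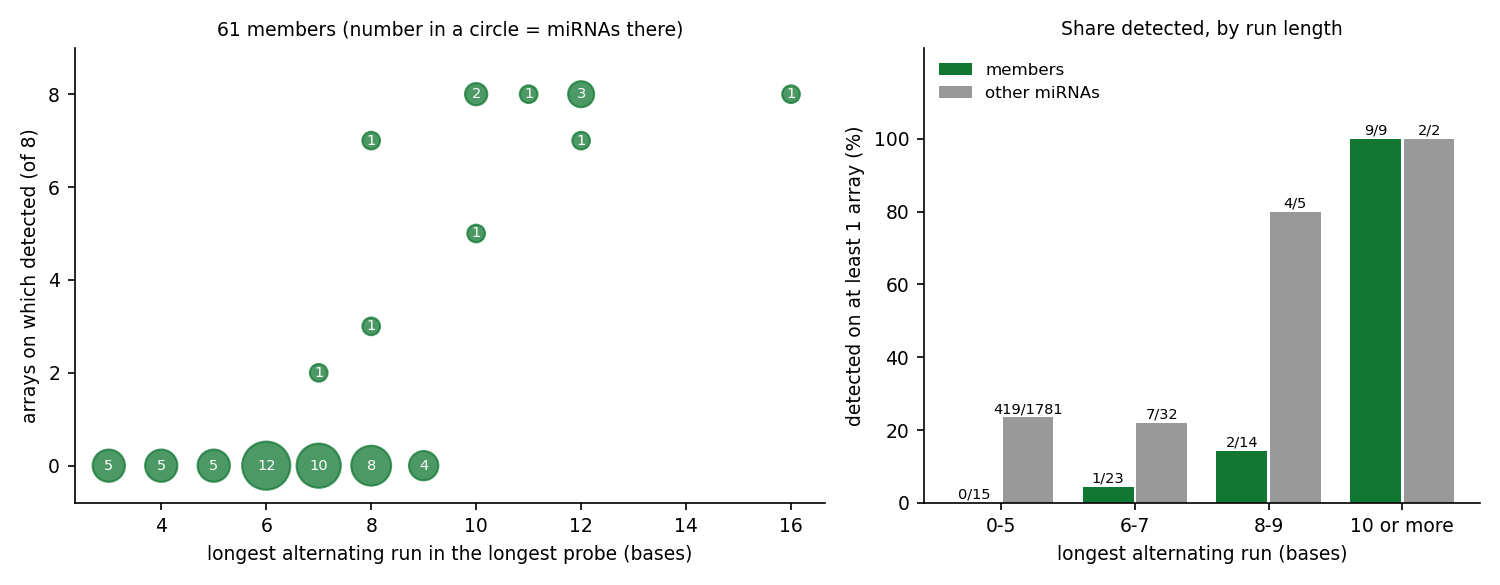
The left panel places the 61 members by the longest alternating run in their longest probe (bases) and by the number of arrays on which they were detected, with the number of miRNAs written in each circle. The right panel gives the percentage detected on at least 1 array by run length for members (green) and other miRNAs (grey), with the counts above each bar. All 9 members with a run of at least 10 bases were detected, against 3 of the 52 with a shorter one.

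A like pattern was seen within the probe sets of some single members, whose probes are truncated forms of one another. Where the longer probe also extends the run, probe length and run length cannot be told apart. Probe sets of other miRNAs were not set beside them. MiR-466q has a probe of 16 bases and one that is 1 base longer, which extends the alternating run from 11 to 12 bases.
miR-466q, 16 bases: acgtaTGTGTGTGTGT
miR-466q, 17 bases: acgtaTGTGTGTGTGTG
The shorter probe was well above background on 0 of 8 arrays and the longer one on all 8. MiR-466f-3p showed a graded series, with its probes of 14 and 15 bases above background on 0 arrays, that of 16 bases on 5 and that of 17 bases on 8. MiR-466i-3p behaved alike, with its probe of 18 bases on 0 arrays and that of 19 bases on 7. The probes of miR-466i-5p, which are repeat from end to end, were above background on all 8 arrays at both 15 and 16 bases. A step of 1 base in the run did not always go with so large a change. The probes of miR-467f, with runs of 11 and 12 bases, were above background on 7 and 8 arrays, and those of miR-669c-3p, also with 11 and 12, on 0 and 4. Where the longer probe adds only letters outside the run, miR-669n had 7 arrays with either probe, miR-466h-3p had 7 and 8, and the 4 probes of miR-669p-3p had 7, 7, 7 and 8. The probes of miR-669f-3p, miR-466g and miR-466h-5p were above background on 0 arrays at every length.

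No probe sequence served 2 members, but many differed by little. Of the 1830 pairs of longest probes, 4 differed by at most 1 base, 22 by at most 2 and 50 by at most 3, and 45 of the 61 members had at least 1 neighbour within 3 differences. The 17 bases of the longest miR-466f-3p probe lie whole within the 19 bases of the miR-466i-3p probe, so the names cannot be told apart by those letters. MiR-669f-3p and miR-669p-3p share a stretch of 14 bases and differ by 3. Near-identity to a detected member did not go with detection in every case. MiR-467d-3p differs from miR-467f by 3 bases and shares 13 with it, has a run of 8 bases and was detected on 0 arrays. Several array names also stand for more than 1 miRNA: the probe of miR-669n is annotated for miR-669c-5p as well, and that of miR-669f-3p for miR-669a-3p and miR-669o-3p. The signal of such a name is that of the group.

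Of the 7 members detected on all 8 arrays, 4 have their RefSeq gene outside Sfmbt2. In the RefSeq table of GRCm38.p6, 60 of the 61 members were matched to a miRNA gene, of which 49 had all their genes within the Sfmbt2 span on chromosome 2, 3 had genes both there and elsewhere and 8 had a gene only elsewhere. Of the 49, 6 were detected on at least 1 array and 2 on all 8 (miR-466h-3p and miR-669p-3p). Of the 3 with genes in both places, miR-466f-3p was detected on all 8 arrays, with 3 of its 4 genes in Sfmbt2 and the other on chromosome 13. Of the 8 with a gene elsewhere only, 5 were detected and 4 of them on all 8 arrays. These 5 were both arms of miR-466i, within Cdk13 on chromosome 13, miR-466q within Tnik and miR-669n within Slc30a7, both on chromosome 3, and miR-467f within Fxr2 on chromosome 11. The other 3, miR-466j, miR-466k and miR-467g, were detected on 0 arrays and had runs of 7, 5 and 9 bases. The array annotation, which uses mm9, instead places the miR-669n probe at chr2:10430951-10430967, next to the miR-669c-3p probe at chr2:10430991-10431007, and gives no position for miR-466i-5p, miR-466q, miR-467f, miR-466f-3p, miR-466h-3p or miR-466g. It places the miR-466i-3p probe at chr13:17839390-17839407 and the miR-669f-3p probe at chr2:10388918-10388934.

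Mature sequences were available in RefSeq (GRCm38.p6) for 7 of the 61 members, 4 of them detected. They are printed 5′ to 3′ with the seed, bases 2 to 8, in capitals, since the seed largely sets a miRNA's targets.
miR-466i-3p: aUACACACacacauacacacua
miR-466q: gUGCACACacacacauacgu
miR-467f: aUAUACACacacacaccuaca
miR-669n: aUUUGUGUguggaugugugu
They lie at chr13:17747552-17747573 (plus strand), chr3:28419988-28420007 (plus strand), chr11:69635419-69635439 (minus strand) and chr3:115979905-115979924 (plus strand). The longest probe left 3, 3, 4 and 2 bases at the 5′ end unread, so it reads part of the seed only. The 7 members with a mature sequence had 7 distinct seeds, so no seed was shared among them.

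The families differed in how many names were detected. None of the 3 miR-297 names was detected on any array. Of the miR-466 names 7 of 23 were detected, and 5 of these on all 8 arrays. The miR-467 family had 1 of 12, miR-467f, which lies outside Sfmbt2. Both arms of miR-467a, the founding name of that family and the one tied to thrombospondin-1, were detected on 0 of 8 arrays. The miR-669 family had 4 of 23 names detected, with miR-669p-3p on all 8 arrays. By arm, 6 of 26 names ending in 3p, 2 of 25 ending in 5p and 4 of 10 without an arm were detected.

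The number of members detected per array was 12, 10, 9 and 11 in control kidneys and 10, 11, 10 and 7 in Akita kidneys, so the groups overlapped and Akita sample 4 had the fewest. Over all miRNAs the same array also had the fewest, at 350, against 372 to 383 in the other Akita samples and 381 to 429 in the controls. The other 5 detected members were called on only some arrays. MiR-669c-3p was called on 7 arrays and missed on Akita sample 4. MiR-669n was missed on that array too. MiR-669f-3p was called on 5 arrays, miR-466g on 3 (controls 1 and 4 and Akita 2) and miR-466h-5p on 2 (control 1 and Akita 3).

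Across the series, 451 probes were well above background on all 8 arrays, no spot was saturated, and a single slide, scanned in 1 day, held all 8 arrays. The control arrays took 1 row of the slide and the Akita arrays the other, so row and group cannot be told apart. The replicate number equals the slide column. Before scaling, the 75th percentile of those probes was 495 to 520 in control and 369 to 446 in Akita. Of 7 kidney tubule miRNAs, 6 were detected on all 8 arrays and miR-215-5p on none, and the 3 pancreas miRNAs were detected on none. On at least 1 array, 2 of 3 erythrocyte, 1 of 1 liver, 1 of 3 striated muscle and 1 of 2 neuron miRNAs were detected. Of the 6 early embryo miRNAs listed, miR-290a-5p was detected on 1 control array and the other 5 on none. Of the 4 leukocyte miRNAs, all detected on 8 arrays, miR-142a-3p, miR-142a-5p and miR-223-3p were lower in Akita, with log2 fold changes of -0.59, -0.55 and -0.44 (limma adjusted p = 0.0051, 0.0091 and 0.034).

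The question put by the design, which miRNAs differ between Akita and control kidneys, gave no call among these families. To be compared, a miRNA had to exceed background clearly on the 4 arrays of one group or the other, and 8 members did so, of 285 miRNAs in all. At a limma adjusted p under 0.05, 0 of the 8 members were called, where 42 of the 285 tested miRNAs were (14.7%), 18 of them lower in Akita (6.32%). In 0 of the 8 did the 4 Akita values lie apart from the 4 control values, against 65 of all tested miRNAs (22.8%). No member had an unadjusted p under 0.05 in limma, and their lowest was 0.49. All 8 estimates were below 0, from -0.23 to -0.0021 on the log2 scale, with a median of -0.046 beside 0.063 over all tested miRNAs. The direction of that median turned when control sample 1 (0.065), Akita sample 3 (0.0081) or Akita sample 4 (0.13) was left out. It also turned with the 75th percentile taken over all probes (0.047, beside 0.16 over all tested miRNAs) and with normexp background correction (0.13, beside 0.13). It stayed below 0 without scaling (-0.31, beside -0.21) and with the labelling spike-ins as reference (-0.28, beside -0.18). The other 53 members were too dim to be compared.

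The level of each tested member is given as the log2 of its scaled signal, on which sums under 23.65 were set to 4.56. Among the members with genes in Sfmbt2, miR-669p-3p stood at 7.36, 7.03, 6.69 and 7.29 in control samples 1 to 4 and at 7.26, 7.59, 6.82 and 6.48 in Akita samples 1 to 4. MiR-466h-3p stood at 6.56, 6.18, 5.92 and 6.28 in control and at 6.38, 6.71, 6.00 and 5.74 in Akita. In both, Akita sample 2 was the highest array and Akita sample 4 the lowest, and the controls lay between them. The log2 fold changes were -0.056 ± 0.24 (SE, limma adjusted p = 0.91) for miR-669p-3p and -0.031 ± 0.21 (SE, limma adjusted p = 0.94) for miR-466h-3p.

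MiR-466f-3p, with genes inside and outside Sfmbt2, stood at 6.53, 5.93, 5.57 and 6.08 in control and at 6.20, 6.45, 5.89 and 5.43 in Akita. Control sample 1 was its highest array and Akita sample 4 its lowest, and its log2 fold change was -0.035 ± 0.25 (SE, limma adjusted p = 0.94). MiR-466i-3p, whose probe contains that of miR-466f-3p, stood at 5.67, 5.29, 4.97 and 5.45 in control and at 5.52, 5.76, 5.06 and 4.81 in Akita. It was detected on all 8 arrays but not well above background on Akita sample 4, and its log2 fold change was -0.058 ± 0.22 (SE, limma adjusted p = 0.90).

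MiR-466q and miR-467f have genes on chromosomes 3 and 11. MiR-466q stood at 5.97, 5.62, 5.18 and 5.81 in control and at 5.76, 6.05, 5.17 and 4.98 in Akita, a log2 fold change of -0.15 ± 0.25 (SE, limma adjusted p = 0.69). MiR-467f stood at 6.61, 6.25, 5.87 and 6.41 in control and at 6.49, 6.80, 6.02 and 5.82 in Akita, a log2 fold change of -0.0021 ± 0.23 (SE, limma adjusted p = 1.00). In both, Akita sample 2 lay above every control and Akita sample 4 below every control.

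MiR-466i-5p and miR-669n carry the complementary run. MiR-466i-5p stood at 9.91, 9.42, 9.21 and 9.80 in control and at 9.98, 9.79, 9.77 and 8.79 in Akita. Of its Akita samples only the fourth fell below the controls, and its log2 fold change was -0.0027 ± 0.26 (SE, limma adjusted p = 1.00). MiR-669n stood at 6.28, 5.63, 5.58 and 5.79 in control and at 6.07, 5.63, 6.07 and 4.58 in Akita, where the last value is next to the floor. It had the lowest estimate of the 8, -0.23 ± 0.32 (SE, limma adjusted p = 0.63), which was 0.11 without Akita sample 4.

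**Figure D2:**
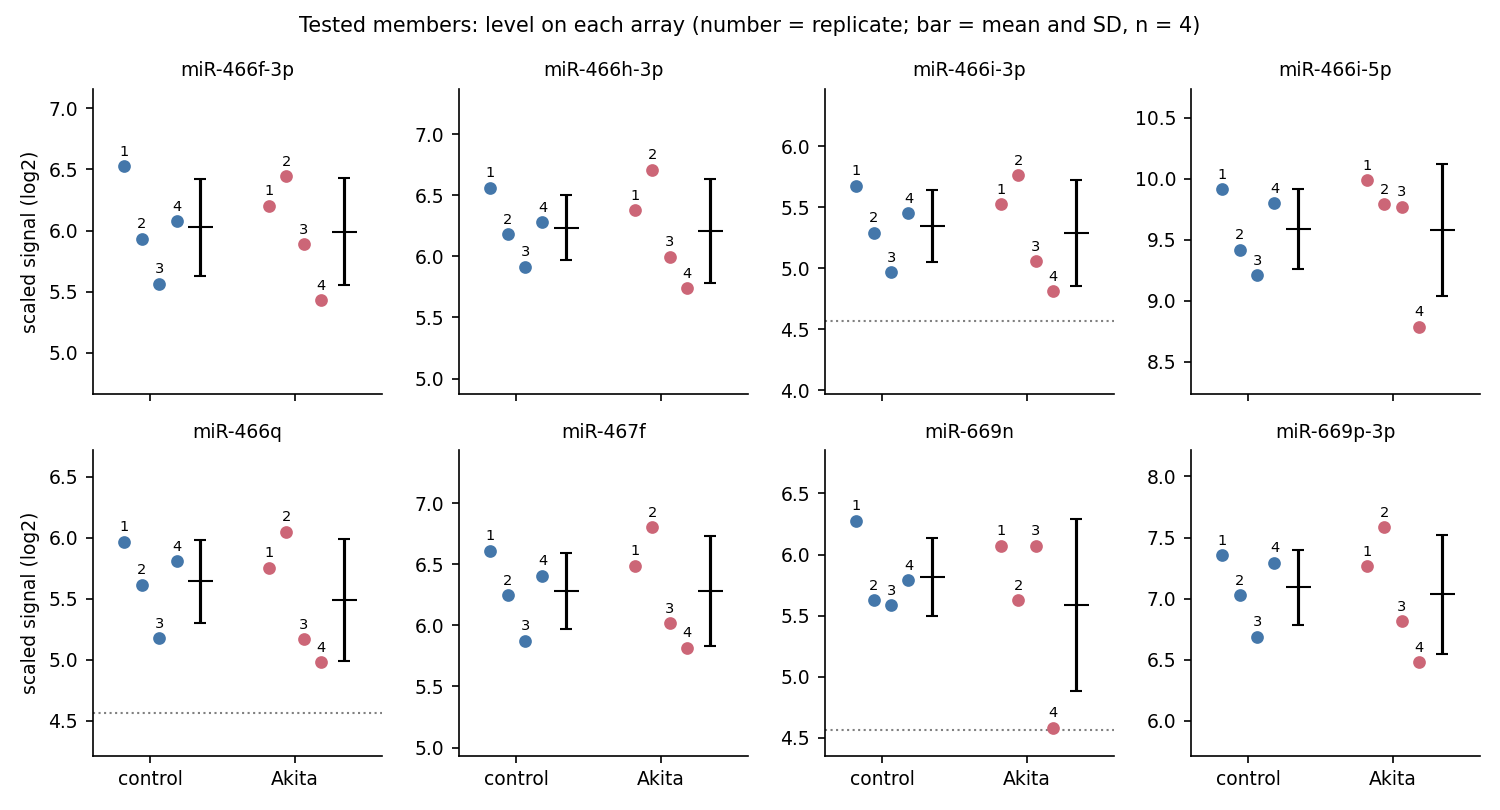
Each panel gives 1 tested member, with the scaled signal (log2) of each control (blue) and Akita (red) array, the replicate number beside each point, and the group mean with its SD (n = 4). The dotted line marks the floor of 4.56 where it falls within the panel. In every panel the groups overlap and Akita sample 4 is the lowest array.

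The 95% intervals of the differences show what size of change the 8 arrays could not resolve. They ran from -0.51 to 0.44 for miR-466h-3p, the narrowest, and from -0.94 to 0.49 for miR-669n, the widest. The highest upper bound was 0.59, for miR-466i-5p. The members varied more within groups than other miRNAs did. Their median SD was 0.31 in control and 0.47 in Akita, against 0.10 and 0.14 over the other 277 tested miRNAs. Against the 171 other miRNAs above background on all 8 arrays in the same range of control levels, whose median SDs were 0.11 and 0.14, the gap was as large. Ranked by SD within groups among the 257 miRNAs above background on all 8 arrays, the 6 members there took places 9 to 13 and 16.

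**Figure D3:**
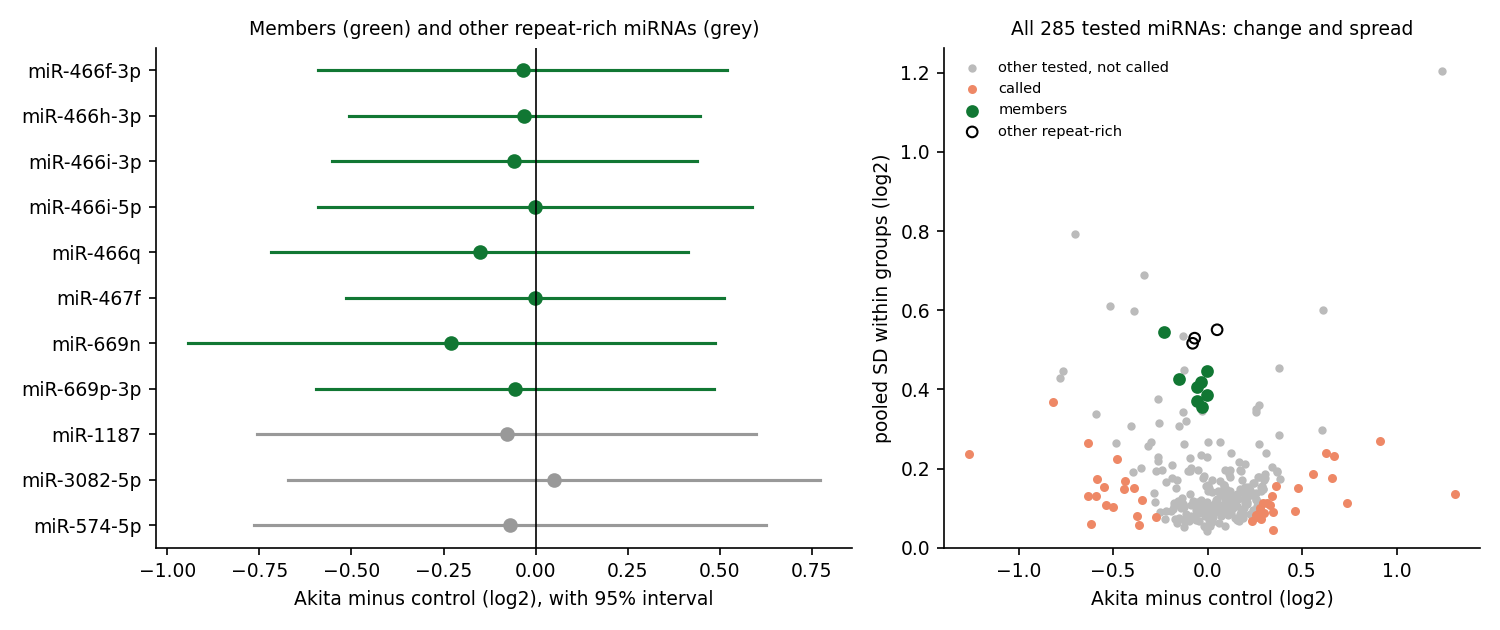
The left panel gives Akita minus control (log2) with its 95% interval for the 8 tested members (green) and for miR-1187, miR-3082-5p and miR-574-5p (grey). The right panel sets that difference against the pooled SD within groups for all 285 tested miRNAs, with called miRNAs in orange, and the members and the 3 repeat-rich miRNAs lie near 0 change with an SD above that of most others.

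The spread was shared, array by array. Relative to its own mean over the 8 arrays, every tested member was lowest on Akita sample 4. So were 19 of the 277 other tested miRNAs (6.86%). Control sample 3 was the lowest of the controls in every tested member, and in 59 of all 285 tested miRNAs (20.7%). The median deviation of the 8 members was 0.35, -0.036, -0.37 and 0.13 on the control arrays and 0.20, 0.46, -0.24 and -0.58 on the Akita arrays. The median over all tested miRNAs stayed between -0.059 and 0.12, with its highest value on Akita sample 4. A control probe that the array carries at its corners moved partly alongside. Its unscaled signal was 60.1, 45.6, 35.0 and 49.4 on the control arrays and 49.9, 42.6, 36.8 and 29.7 on the Akita arrays, so that its 3 dimmest arrays were the 3 on which the members' median was lowest. A labelling spike-in, dmr_31a, stood at 1001, 968, 1002 and 1014 on the control arrays and at 970, 891, 877 and 863 on the Akita arrays. It did not follow the members on every array. It was 1002 on control sample 3, where their median was -0.37, and 891 on Akita sample 2, where it was 0.46. The part of these signals in the members' swing was not tested.

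Different profiles could be seen among the members, divided by the orientation of the run. The 6 members whose probes carry T and G had their highest Akita value on sample 2, 0.44 to 0.52 above their own mean, and lay 0.12 to 0.40 below it on sample 3, a step of 0.56 to 0.88 between those arrays. They come from genes on chromosomes 2, 3, 11 and 13. The 2 members whose probes carry C and A lay 0.19 and 0.37 above their mean on Akita sample 3 and fell further on sample 4, to -0.80 and -1.12, where the first 6 lay between -0.59 and -0.47. On Akita sample 1 the 2 orientations also lay apart, at 0.37 and 0.40 for C and A and at 0.16 to 0.21 for T and G. On Akita sample 2 the members with C and A lay at -0.076 and 0.20. On control arrays 1, 3 and 4 the 2 orientations overlapped. On control array 2 they lay side by side, at -0.17 and -0.078 for C and A and at -0.075 to 0.049 for T and G. The division was seen after the values were known and is given without a test.

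Other miRNAs of the array hold the same kind of run. Of the 7 other miRNAs with a run of at least 8 bases, all in C and A, 6 were detected and 3 could be compared. MiR-574-5p lies within the spans of Fam114a1 and Tlr6 in RefSeq. This miRNA, miR-1187 and miR-3082-5p are printed because their probes hold runs of 11, 9 and 10 bases (capitals) and resemble that of miR-466i-5p.
miR-574-5p: acacactCACACACACAC
miR-1187: ttacacacatACACACACA
miR-3082-5p: acacagACACACACAC
MiR-574-5p shares 11 consecutive bases with the probe of miR-466i-5p and differs from it by 3, fewer than any member does. It stood at 8.58, 8.16, 7.86 and 8.56 in control and at 8.68, 8.64, 8.30 and 7.25 in Akita, a log2 fold change of -0.068 ± 0.31 (SE, limma adjusted p = 0.91). The fold changes of miR-1187 and miR-3082-5p were -0.079 ± 0.30 and 0.050 ± 0.32 (SE, limma adjusted p = 0.90 and 0.94). All 3 were lowest on Akita sample 4, by 1.00 to 1.02 below their own means, and lowest among the controls on sample 3. On Akita sample 3 they lay between 0.049 and 0.44 above their means, beside 0.19 and 0.37 for the 2 members with C and A. On Akita sample 2 they lay between 0.11 and 0.38 above, beside -0.076 and 0.20 for those members, and miR-574-5p, at 0.38 on sample 2 and 0.049 on sample 3, fell outside the members' range on both arrays. Of the 27 tested miRNAs that were lowest on Akita sample 4, 8 were members, 3 were these miRNAs and 16 had no run of 8 bases.

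**Figure D4:**
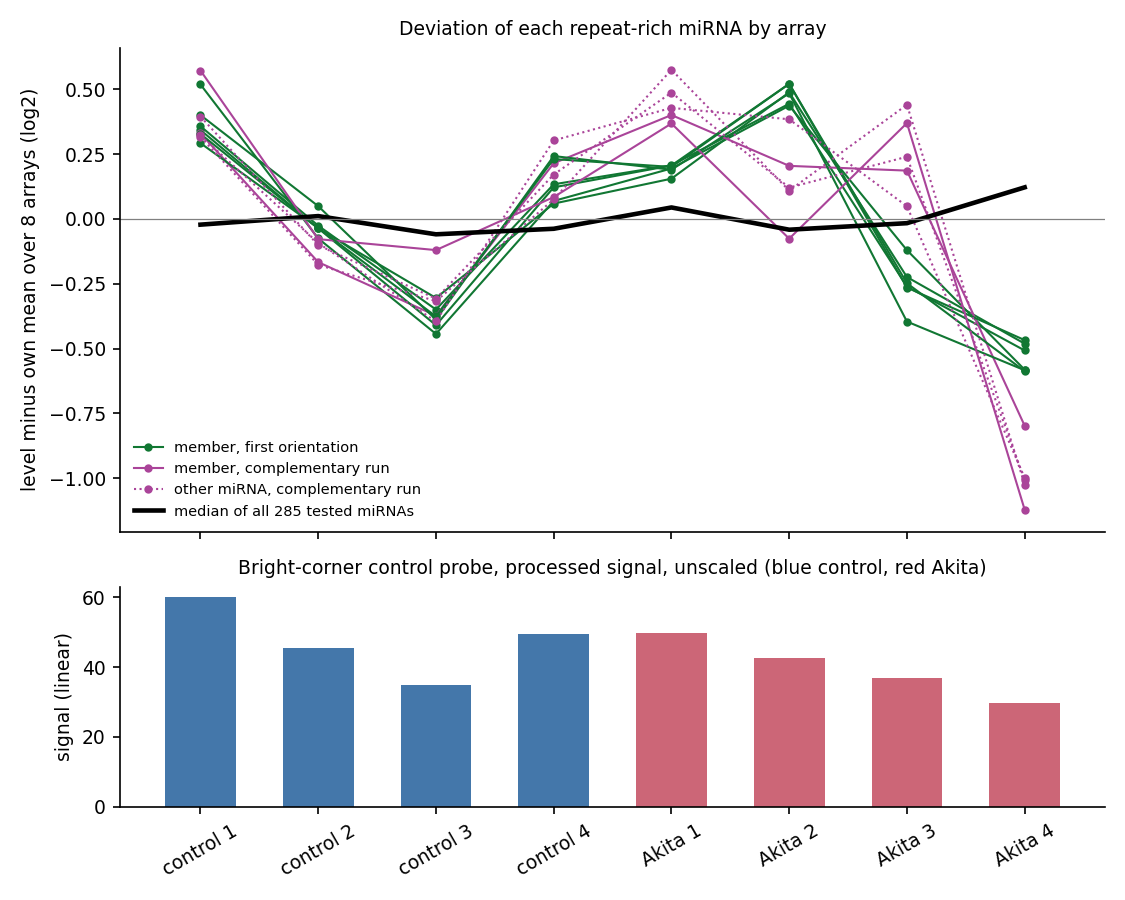
The upper panel gives each miRNA's level minus its own mean over the 8 arrays (log2): green lines are the 6 members with T and G in their probes, purple lines the 2 members with C and A, dotted lines miR-574-5p, miR-1187 and miR-3082-5p, and the black line the median of all 285 tested miRNAs; lines only join the points of 1 miRNA. The lower panel gives the unscaled signal of the bright-corner control probe, and its 3 lowest bars, control 3, Akita 3 and Akita 4, are the arrays on which the members' median was lowest.

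**Figure D5:**
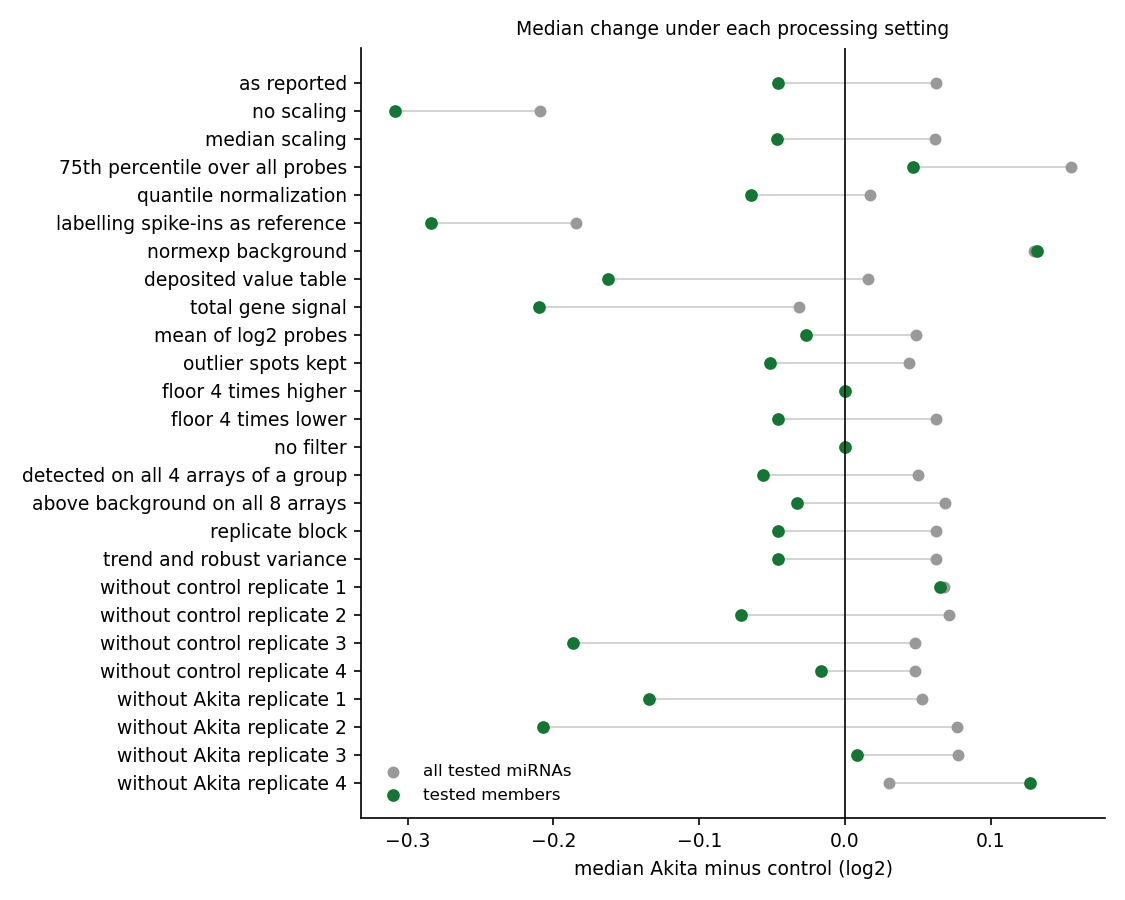
Each row gives the median Akita minus control difference (log2) under 1 processing setting, for the tested members (green) and for all tested miRNAs (grey). The members' median runs from -0.31 without scaling to 0.13, and 0 members were called in any row.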

How the data were processed

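One-colour Agilent mouse miRNA arrays (Cy3) of 8 kidney RNA samples were used. Groups came from the sample titles. The deposited scanner files hold a linear intensity per spot, made with Agilent Feature Extraction 12.0.3.1 per the file headers, which subtracted a spatial background surface and did not normalize between arrays. The deposited value table, used as an alternative, gives each miRNA a linear ratio on each array, with scaling and centring steps that no source used here states.

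From these files, outlier spots (2.03% to 3.02%) and control spots were left out, spots of a probe averaged, each array divided by its 75th percentile over 451 probes above background on all 8 arrays (on at least 0.5 of their spots), probes of a miRNA summed, sums floored at 23.65 and log2 taken. The 285 miRNAs above background on all 4 arrays of a group went into a two-sided limma fit (version 3.58.1, R 4.3.3; lmFit, eBayes, Benjamini-Hochberg over 285, threshold 0.05); the steps were tested on simulated data. The number of arrays limits the precision.

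Detection is the deposited flag per miRNA. Probe sequences and mm9 positions are those of the array annotation. Genes and mature sequences are RefSeq's (GRCm38.p6). The run was measured on probes because mature sequences were at hand for 7 of the 61 members. Differences between probes are counted as edits (substitution, insertion or deletion). Named were every tested or detected member, and those other miRNAs with a run of at least 8 that were tested. Members, lists and tests were chosen with earlier results of these data known.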

Additional observations from a re-analysis of the deposited data

How the results depend on the processing

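In all 25 alternatives, 0 members were called. Against 42 calls over all tested miRNAs there were 109 without scaling, 117 with labelling spike-ins as the reference, 14 with the 75th percentile over all probes, 89 with normexp, 9 with a floor 4 times higher, 6 without a filter and 20 to 40 when 1 array was left out. The members' median was -0.31, -0.28, 0.047, 0.13, 0, 0 and -0.21 to 0.13 in the same order, and -0.16 with the deposited value table. Both medians of 0 came from floored values and do not measure a change. With the higher floor 4 of the 8 tested members had an estimate of 0, and without a filter 48 of 61 did. With the replicate number as a block (replicate block) there were 25 calls in all and no member's adjusted p fell under 0.51. The correlations between the deviations of samples of the same number were 0.096, -0.30, 0.34 and -0.35. The replicate number is also the slide column. So few correlations cannot decide whether the numbers pair the samples.

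Single estimates changed sign. With the percentile over all probes, miR-466f-3p, miR-466h-3p, miR-466i-3p, miR-466i-5p, miR-467f and miR-669p-3p had log2 fold changes of 0.057, 0.062, 0.034, 0.090, 0.090 and 0.036. With normexp these 6 had 0.17, 0.14, 0.16, 0.016, 0.14 and 0.13, and miR-466q and miR-669n had 0.13 and 0.11. The lowest limma adjusted p of any member in any alternative was 0.056, for miR-466f-3p with normexp. With the mean of log2 probes miR-466f-3p had 0.024, and with the higher floor miR-466h-3p had 0.036 and miR-467f 0.048. That floor lay above most array values of miR-466h-3p and miR-467f, with Akita sample 2 above it in both. With the deposited value table miR-669n had -1.60, where its total signal on Akita sample 4 was at the software's minimum of 0.1. When 1 array was left out, miR-466f-3p ran from -0.19 to 0.15, miR-466h-3p from -0.20 to 0.12, miR-466i-3p from -0.22 to 0.10, miR-466i-5p from -0.14 to 0.26, miR-466q from -0.34 to 0.017, miR-467f from -0.18 to 0.15, miR-669n from -0.39 to 0.11 and miR-669p-3p from -0.24 to 0.13. The median over all tested miRNAs also rose, from 0.063 to 0.16 with the percentile over all probes and to 0.13 with normexp. The cause of these turns was not tested.

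With other rules of detection the count of 12 members became 9 (well above background), 13 (above the negative controls by 3 SD) and 12 (signal above 3 errors), and 12 with any 1 array left out. Members with a run of at least 10 bases were 8, 9 and 9 of the 9 under these rules, and those with a shorter run 1, 4 and 3 of 52. The rule of signal above 3 errors gave the same count as the deposited call on every array. That call also sets signal against error, so the rule is no separate check.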

Other observations

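The miR-290 to miR-295 cluster, another miRNA cluster that is typical of early embryo cells, had 4 of its 18 names detected on at least 1 array (miR-290a-3p, miR-290a-5p, miR-291b-5p and miR-292b-3p), 2 of them on all 8 arrays and 1 bright enough to be compared. That name, miR-291b-5p, was higher in Akita, with a log2 fold change of 0.36 (limma adjusted p = 0.049), though the values of the groups overlapped.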
